A study of Xenopus tropicalis with 8 samples.

Results

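The 4 arrays of finasteride-treated testis are described here by how far their transcript levels differed from one array to the next, out of 8 arrays in all. Members were the 22491 of 32899 non-control probes (68.4%) that were well above background on all 4 of these arrays, and they were ranked by the standard deviation (SD) of their level over the 4 arrays. The tissue was testis of the frog Xenopus (Silurana) tropicalis, from juvenile males, kept in L-15 medium at 26 °C for 6 h with 5 µM finasteride, and the 4 control arrays held the same tissue kept alike with 0 µM. RNA was extracted with TRIzol and labelled with Cy3. The labels do not say whether an array holds 1 animal or a pool, so p-values stand only for the spread among these arrays, and that spread may be technical. Each arm has 8 samples by the design text, of which 4 arrays were used here. No genetic change is named for either group. A level is the log2 processed intensity minus the array's 75th percentile, which puts that percentile at 0, and a difference of 1 is a 2-fold difference. Since the SD chose the genes, their values are a description and carry no test.

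Finasteride inhibits steroid 5-alpha-reductase, the enzyme that turns testosterone into dihydrotestosterone, the more potent ligand of the androgen receptor. The testis holds germ cells at successive stages (spermatogonia, meiotic spermatocytes, spermatids that build a flagellum), the Sertoli cells that nurse them, Leydig cells that make androgens, and vessels, matrix and blood between the tubules. In bulk tissue, fewer cells of a type and less RNA per cell cannot be told apart, and pieces of a gonad can also carry other tissue with them. A gene whose level differs between arrays of the same group is therefore set below beside the same gene on the control arrays.

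The 75th percentile of processed intensity was 896 on finasteride 1, 1798 on finasteride 2, 1664 on finasteride 3 and 1115 on finasteride 4, and it ran from 719 to 1687 on controls. Well above background were 69.4% of the probes on finasteride 4, 76.1% on finasteride 1, 80.8% on finasteride 2 and 85.5% on finasteride 3, against 71.8% to 75.5% on controls. None of 5 such measures differed between the groups past the threshold (exact permutation tests, two-sided, n = 4 each, adjusted p of 0.75 or more, where the smallest p the design allows is 0.0286). Finasteride 3 and 4 shared a slide with control 1 and 2, and finasteride 1 and 2 shared the other with control 3 and 4. Within a slide, finasteride arrays lay at positions 2 and 4 and controls at 1 and 3, so that treatment and position on the slide cannot be told apart. Finasteride 2 and 4 lay at position 2, finasteride 1 and 3 at 4, controls 2 and 4 at 1 and controls 1 and 3 at 3. A split of arrays 1 and 3 from 2 and 4 within a group therefore cannot be told apart from position either. The number of arrays limits the precision of every SD.

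The label testis was set beside its markers, without a test. Well above background on all 4 finasteride arrays were 17 of the 18 spermatid and flagellum genes named on the array, 6 of 7 meiosis genes (not sycp3), 4 of 5 spermatogonial genes and 7 of 9 Sertoli genes. Of 7 ovary and oocyte genes 2 were, rbpms2 and gtf3a, while the oocyte genes gdf9 and bmp15 were not. Genes could be named on 3476 member probes, which gave 3321 genes of the 4639 named on any probe, the share beside which these counts stand. Past the same filter were 8 of 12 Leydig and steroid synthesis genes, 12 of 19 liver genes and 9 of 15 kidney and interrenal genes.

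On the scanner's processed intensity, levels spread more widely over the finasteride arrays than over the control arrays. The median SD of the members was 0.332, and over the same probes it was 0.212 on controls. Of the 22089 probes well above background on all 8 arrays, 73.3% had the larger SD on the finasteride arrays, and the ratio of the median SDs was 1.58. An SD over 1, which is a typical distance of 2-fold from the mean, was reached by 452 members on finasteride arrays and by 296 on control arrays. Both the size and the direction depended on choices: without finasteride 1 the median SD of members was 0.272 and the share 61.8%, and under normexp background correction of the median spot signals the share turned to 22.9%. Probes printed on 2 spots give the scale of reading error: for 6559 such members, the largest difference between the 2 spots on any finasteride array had a median of 0.148, against a median range of 0.764 over the 4 arrays.

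Spread fell with level on controls and less so on finasteride arrays. With the members cut by mean level into 5 groups of equal size, the median SD of the dimmest group was 0.36 on finasteride arrays and 0.312 on controls. In the brightest group it was 0.306 against 0.171. Bright and dim probes did not move alike on a given array: the median deviation of finasteride 1 from the mean of the 4 finasteride arrays ran from -0.06 in the dimmest group to 0.22 in the brightest, and that of finasteride 3 from 0.14 to -0.13. Finasteride 2 and 4 stayed between -0.08 and 0.03 in all 5 groups. These shifts stand beside every list of bright or dim genes below, and their part in those values was not tested.

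**Figure D1:**
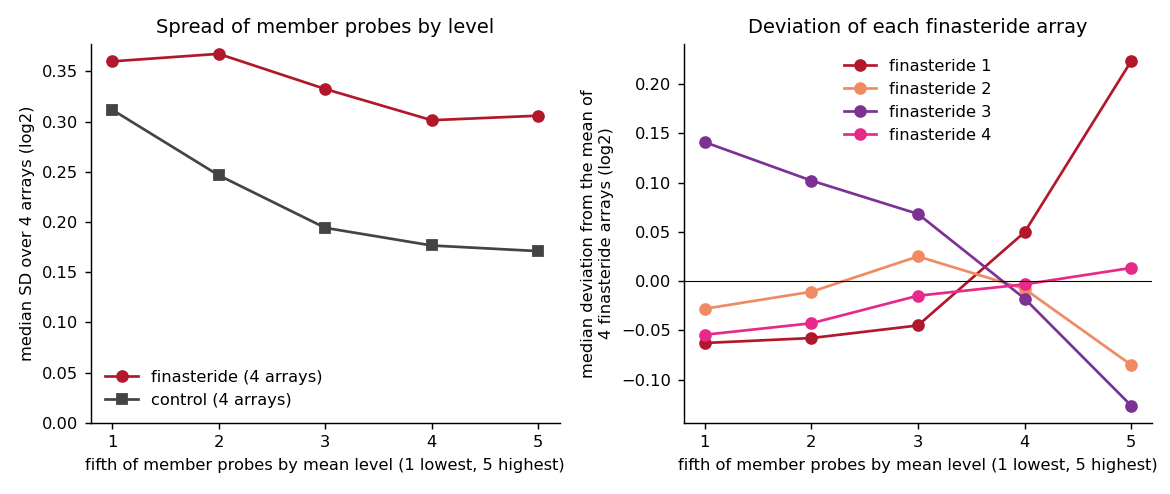
Left, the median SD over the 4 finasteride arrays (circles) and over the 4 control arrays (squares), in log2 units, for the member probes cut into 5 groups by mean level on the finasteride arrays. Right, the median deviation of each finasteride array from the mean of the 4, in log2 units, in the same groups: finasteride 1 reaches 0.22 in the brightest group, where finasteride 3 lies at -0.13.

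Finasteride 1 stood farthest from the others. The median distance of a member from the mean of the other 3 finasteride arrays was 0.357 on finasteride 1, 0.323 on finasteride 3, 0.286 on finasteride 4 and 0.227 on finasteride 2, while for control arrays measured the same way it ran from 0.144 to 0.237. All 4 finasteride arrays correlated at 0.960 to 0.976 with each other over probes, and the controls at 0.971 to 0.989. Probes are not independent replicates, so these coefficients describe the arrays only.

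An array was said to depart where it lay beyond the other 3 of its group and at least 2-fold from the nearest. This held for 1226 members, which is 5.45% on the finasteride arrays, against 559 of 22920 probes, 2.44%, on the control arrays. Finasteride 1 was the low array for 357 probes and the high one for 170. Finasteride 3 was high for 177 and low for 157, finasteride 2 high for 99 and low for 133, and finasteride 4 departed for 162 in all, low for 55 of them. Among controls, control 3 was low for 240 probes and control 4 high for 205, so single arrays also departed without finasteride. Of named genes, 66 were low and 7 high on finasteride 1, 21 low and 18 high on finasteride 2, 23 low and 33 high on finasteride 3, and 12 low and 13 high on finasteride 4.

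**Figure D2:**
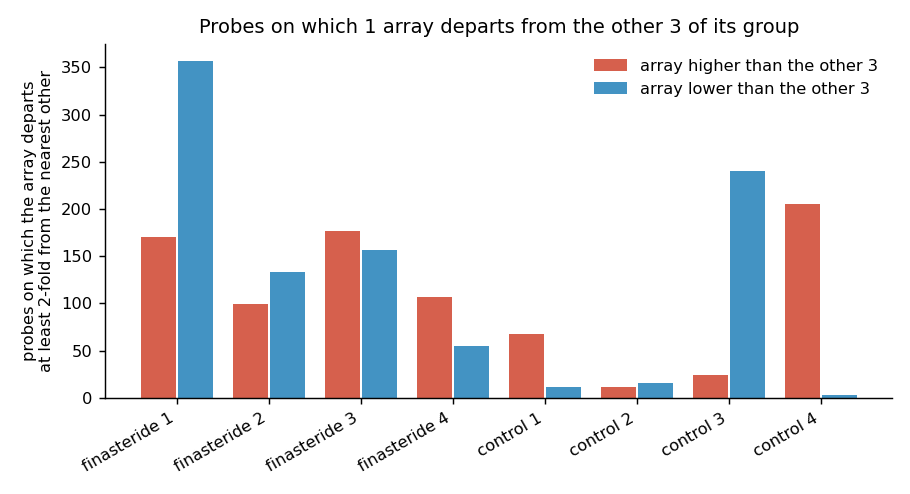
Number of probes on which each array departs at least 2-fold from the nearest of the other 3 of its group, high (red) or low (blue), of 22491 member probes for the finasteride arrays and 22920 probes for the controls. The tallest bar is finasteride 1 low, at 357 probes, followed by control 3 low at 240.

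The genes of highest SD included several that split the 4 arrays into pairs. First of all named genes was nectin1l2.2, a gene of the nectin family of cell adhesion molecules, with levels of 0.59 on finasteride 1 and 0.25 on finasteride 4, but -5.03 on finasteride 2 and -5.16 on finasteride 3. Its SD was 3.19, and the controls split as well: they lay at -1.14 and 0.03 on arrays 1 and 3 and at -4.75 and -4.49 on arrays 2 and 4. The secreted C1q-like gene c1ql4 paired other arrays, at 1.44 and 1.31 on finasteride 1 and 2 and -3.20 and -4.05 on finasteride 3 and 4. On controls only array 1 was raised, at -0.66 against -4.05 to -4.46 on the other 3.

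Small heat shock gene hspb2, best known from muscle, was high on finasteride 3 and 4 (-0.02 and 0.09) and low on finasteride 1 and 2 (-3.50 and -3.18). Its control levels covered much of that range, from -3.29 to -0.55. The synaptic vesicle gene sv2c read -2.21 and -1.11 on finasteride 1 and 4 against -5.16 and -4.48 on finasteride 2 and 3, the same pairs as nectin1l2.2, and control levels from -4.53 to -1.81 with arrays 1 and 3 above 2 and 4. On both sets of arrays sv2c was high where nectin1l2.2 was high. Glycine decarboxylase gene gldc was at -1.67 and -2.07 on finasteride 2 and 3 and at -4.22 and -4.20 on finasteride 1 and 4, with controls from -4.50 to -1.81.

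Other genes split into pairs or singles on the finasteride arrays while the 4 controls lay close together. The zinc-finger gene znf106 read -2.04 and -1.88 on finasteride 2 and 4 and -4.80 and -4.53 on finasteride 1 and 3, while all controls lay between -5.32 and -4.69. The cadherin gene cdh10, an adhesion molecule, read -0.76 on finasteride 3 and -1.99 on finasteride 4, against -4.02 and -4.58 on finasteride 1 and 2 and -4.18 to -3.66 on controls. Finasteride 1 and 2 thus lay near the controls for cdh10 and finasteride 3 and 4 above them, although its 2 spots differed by up to 1.19 on an array.

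The chromatin remodelling gene arid1a, a subunit of the SWI/SNF complex, read -3.91 on finasteride 3 and -0.42, -1.59 and 0.03 on finasteride 1, 2 and 4, with controls from -1.26 to -0.85. For osgepl1, a gene of mitochondrial tRNA modification, finasteride 2 and 4 read -0.60 and 0.83 and finasteride 1 and 3 2.43 and 2.16, with controls from 1.94 to 2.21. Gap junction gene gjc1 went both ways, at -2.42 on finasteride 2 and 0.89 on finasteride 3, between -0.76 and -0.66 on the other two and between -0.33 and 0.09 on controls. For sapcd1 finasteride 4 was low, at -4.62, with the other finasteride arrays from -2.23 to -1.44 and controls from -1.40 to -0.90. In all 6 of these genes the control SD lay between 0.11 and 0.30 and the finasteride SD between 1.35 and 1.78. An SD here rests on 4 values, and the probes of znf106, arid1a and osgepl1 carry xhyb in their names, so whether they read only their own gene was not tested.

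**Figure D3:**
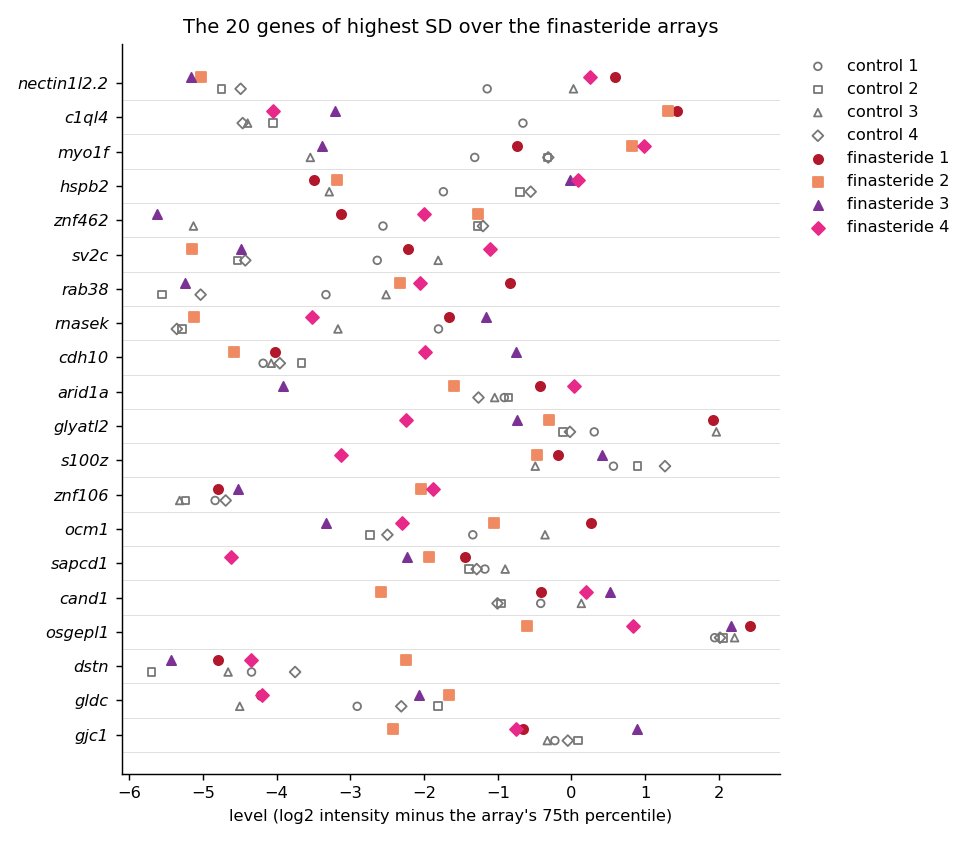
Levels (log2 intensity minus the array's 75th percentile) of the 20 named genes of highest SD over the finasteride arrays, with filled symbols for the 4 finasteride arrays and open grey symbols for the 4 controls, 1 symbol per array. Controls cover a wide range for nectin1l2.2 (SD 2.40) and a narrow one for osgepl1 (SD 0.11).

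The other genes among the 20 of highest SD mostly set 1 finasteride array apart, and most of these varied in controls as well. Myosin gene myo1f, known from white blood cells of mammals, read -3.39 on finasteride 3 against -0.74, 0.82 and 0.98 on finasteride 1, 2 and 4, and control 3 was low too, at -3.54 against -1.31 to -0.32. The zinc-finger gene znf462 had the same low arrays, with -5.63 on finasteride 3 against -3.12 to -1.27 on the others and -5.13 on control 3 against -2.56 to -1.20. The small GTPase gene rab38 was highest on finasteride 1 (-0.83) and lowest on finasteride 3 (-5.25), with -2.32 and -2.05 on finasteride 2 and 4 and controls from -5.55 to -2.52. In these 3 genes finasteride 3 was the lowest array of its group.

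The ribonuclease gene rnasek read -5.12 on finasteride 2 and -3.52 on finasteride 4, against -1.66 and -1.17 on finasteride 1 and 3. Controls 2 and 4 were also its low arrays (-5.28 and -5.36, against -1.80 and -3.17 on controls 1 and 3). Cullin assembly gene cand1 read -2.58 on finasteride 2 and from -0.41 to 0.52 on the others, with controls from -1.0 to 0.13. Finasteride 2 was thus the low array of both genes, and controls 2 and 4 were low in both, by less in cand1.

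The acyltransferase-like gene glyatl2 ran from -2.24 on finasteride 4 through -0.74 and -0.31 on finasteride 3 and 2 to 1.92 on finasteride 1, and control 3 stood at 1.97 against -0.12 to 0.31. Oncomodulin gene ocm1, a calcium-binding parvalbumin, ran from -3.33 on finasteride 3 through -2.31 and -1.05 on finasteride 4 and 2 to 0.27 on finasteride 1, with controls from -2.74 to -0.36. Calcium-binding S100 gene s100z read -3.12 on finasteride 4 against -0.47 to 0.42 on the others and -0.49 to 1.27 on controls. Destrin gene dstn, whose protein takes actin filaments apart, read -2.24 on finasteride 2 against -5.43 to -4.35 on the others and -5.70 to -3.75 on controls. The first gene outside these 20 had an SD of 1.34, against 1.35 for gjc1, the last inside.

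Low levels on finasteride 1 made the most frequent pattern. Of 1443 members whose widest gap between neighbouring arrays was at least 2-fold (6.42%), 356 (24.7%) had finasteride 1 below the other 3, and 66 of the 217 named genes with such a gap (6.53%) did. The scaffold gene ush1c read 1.29 on finasteride 1 against 3.32 to 3.68 on the other 3 and 3.14 to 3.68 on controls. Germ cell gene tex15, needed for meiosis in male mice, read -1.95 against -0.11 to 0.35 and control levels from 0.15 to 0.67. The centrosome gene nin and the coiled-coil gene ccdc18 read -0.58 against 1.21 to 1.48 and -1.24 against 0.55 to 0.79, with controls from 0.90 to 1.49 and from 0.31 to 0.65. For these 4 genes finasteride 1 lay below all 7 other arrays.

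Of the other genes among the 6 widest gaps on this side, dsel had finasteride 1 below all 7 other arrays and mpv17l did not. The organelle membrane gene mpv17l read -1.08 on finasteride 1 against 0.81 to 1.52, and control 3 was lower still, at -1.69. For dsel, a gene of dermatan sulfate synthesis, finasteride 1 read -5.23 against -3.44 to -3.05, with controls from -3.90 to -2.66. Of the 356 probes low on finasteride 1, 37 (10.4%) also had a 2-fold gap on controls, and for 29 of these 37 control 3 was the low array.

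Of named genes only 7 were high on finasteride 1, although it was the high array for 170 member probes, most of which carry no gene symbol. Besides rab38, glyatl2 and ocm1, the alpha-2 adrenergic receptor gene adra2b read 0.69 against -1.88 to -0.71, with controls from -0.45 to -0.11, so the other 3 finasteride arrays lay below all controls. The telomere capping gene ten1 read 0.67 against -1.19 to -0.63 and controls from -1.47 to -0.22. Cannabinoid receptor gene cnr2 read -3.38 against -4.69 to -4.43, but its 2 spots differed by 2.59 on an array, more than that gap.

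Genes high on finasteride 2 included dstn and 5 others. The RNA methyltransferase gene tarbp1 read -2.28 against -5.27 to -4.71, with controls from -5.08 to -4.21. Astacin-like protease gene astl2f read 0.07 against -2.24 to -1.55 (controls -2.45 to -1.89), and serine protease gene tmprss4 0.29 against -2.58 to -1.27 (controls -2.95 to -1.92). The lysosomal gene lamp3 read -1.28 against -3.99 to -3.01 (controls -3.97 to -2.24). In these 4 genes finasteride 2 was the highest of all 8 arrays. For the PDZ and LIM domain gene pdlim2, at -0.69 against -3.36 to -2.91, controls 2 and 4 reached the same level (-0.68 and -0.74) and control 3 lay at -3.23.

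Of the 6 genes with the widest gap below the others on finasteride 2, 5 were low on controls 2 and 4 as well: rnasek, cand1, rasal3, naa80 and sv2b. The GTPase-activating gene rasal3, of the Ras pathway, read -0.99 on finasteride 2 against 1.09, 1.60 and 1.72 on finasteride 1, 3 and 4, and -0.96 and -0.91 on controls 2 and 4 against 0.85 and 1.23 on controls 1 and 3. The actin acetyltransferase gene naa80 read -1.44 on finasteride 2 against 0.38, 1.12 and 0.25, and -1.55 and -1.57 on controls 2 and 4 against 0.22 and 1.07. Vesicle gene sv2b read -5.23 against -3.62 to -3.19, with -5.70 and -6.15 on controls 2 and 4, and only 1 of its control arrays was well above background. These 3 genes were named for their gap on the finasteride arrays, so only their control values were not set by the naming. Of the 126 members low on finasteride 2 alone, 49 (38.9%) had a 2-fold gap on controls, and for 39 of these 49 it set controls 1 and 3 above 2 and 4. Controls 1 and 3 had the same position on their slides, as did controls 2 and 4, so this split and position cannot be told apart.

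Several probes to the same transcript read rasal3 alike. All 4 of its probes were lowest on finasteride 2 among the finasteride arrays, at -0.99, -5.25, -1.93 and -3.53, and their SDs were from 1.1 to 1.44. Over 33 transcripts with 11 or more probes of the same design, the median SD between probes within an array was 0.071 and the median SD between arrays 0.281, and the second was larger in 32 of them. Differences between arrays were thus wider than those between repeated probes on an array.

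The probes of highest SD had no gene symbol. The probe to transcript CR761750 read 5.75, 4.97 and 5.08 on finasteride 1, 3 and 4 and -4.27 on finasteride 2, and on controls 3.93 and 5.01 on arrays 1 and 3 against -5.76 and -5.56 on arrays 2 and 4. A probe to BC080143 read 5.87, 4.67 and 5.17 against -4.05, with 3.92 and 5.16 on controls 1 and 3 and -6.46 and -6.66 on controls 2 and 4. Both probes split the 8 arrays as rasal3 did, from among the brightest signals to the dimmest. The next in rank behaved otherwise: the probe to CT030079 read 7.60 on finasteride 4 against 0.25 to 0.94 on the other 3 and 0.19 to 0.39 on controls, and that to CU075537 5.37 against -2.18 to -0.30 and controls from -1.26 to -0.46. Each of these latter probes rests on 1 spot.

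For 31 named genes the widest gap was at least 2-fold and set finasteride 3 alone above the others. The lists of spermatid and flagellum, Leydig and steroid synthesis, and heat shock and unfolded protein genes held 1 of these each. Of all 3321 named genes, 17, 8 and 13 were on these lists. The spermatid gene spata6 is needed in mice to join the sperm head to the tail. It read 0.25 on finasteride 3 against -2.16, -2.39 and -1.89 on finasteride 1, 2 and 4, with all 4 controls between -2.60 and -2.53. Sperm-tail repeat gene stpg2 read -2.09 against -4.49 to -4.13 (controls -4.36 to -3.94). The lysosomal gene plbd2 read -1.99 against -4.02 to -3.52, kinase gene brsk1 0.17 against -1.92 to -1.28, and btbd10 -0.90 against -2.39 to -2.27. For these 5 genes finasteride 3 was the highest of all 8 arrays.

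Besides myo1f, znf462, rab38 and arid1a, the genes low on finasteride 3 included vav1 and sorcs2. The signalling gene vav1, a white blood cell gene in mammals, read -3.95 on finasteride 3 against -1.77, -1.29 and -1.45 on finasteride 1, 2 and 4 and -1.67 to -1.36 on controls. Sortilin-family receptor gene sorcs2 read -4.65 against -2.75 to -2.60, with controls from -3.91 to -2.58. Finasteride 3 was the lowest of all 8 arrays for both. The list of white blood cell and platelet genes was not low there, with a median deviation of 0.13 (all named genes 0.06). Finasteride 3 was the lowest array for 2 of its 5 genes and the highest for 2.

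On finasteride 4, the orphan receptor gene gpr162 read 0.44 against -1.98, -2.50 and -2.05 on finasteride 1, 2 and 3, while controls lay between 0.78 and 1.27. Finasteride 4 was thus the array nearest to the controls. Sulfatase gene arsh read -1.11 against -3.92 to -3.42 (controls -3.31 to -2.87) and lipoprotein lipase gene lpl -1.37 against -3.25 to -2.52 (controls -2.82 to -2.06). Angiomotin gene amot read -2.59 against -4.16 to -4.07 (controls -4.24 to -3.15), and the cholinesterase gene bche -1.70 against -3.25 to -2.85 (controls -3.27 to -2.43). In these 4 genes finasteride 4 was the highest of all 8 arrays. The cell death regulator cflar, at -0.36 against -2.70 to -1.53, was as high on control 4, at -0.42.

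Genes low on finasteride 4, with s100z and sapcd1, were the glycosyltransferase gene pomt2 (-4.62 against -2.81 to -2.62, controls -3.25 to -2.67), the serum IGF carrier gene igfals (-3.83 against -2.13 to -1.70, controls -2.45 to -2.04) and the transcription factor gene zic5. For zic5 the other 3 finasteride arrays lay at -3.08 to -2.94, above controls at -4.65 to -4.01, while finasteride 4 read -4.86. The multiciliation regulator gene mcidas read -2.52 against -0.98 to -0.21, the level of control 3 (-2.52), with the other controls from -0.71 to 0.02.

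High spread on finasteride arrays went with high spread on controls for many probes and not for others. Among the 225 probes in the highest 1% by SD (1.196 or more), 120 (53.3%) lay in the highest 5% of control SD, and 70 were in the highest 1% of both, which is 31.1% of the finasteride list and 30.6% of the control list. A 2-fold gap on controls was present in 19.4% of the members with such a gap on finasteride arrays, against 3.28% of all members. Splits into pairs made up 16.4% of the gapped members, and 83.6% set 1 array against 3.

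Gene lists of the tissue's cell types and pathways were then compared by their median SD. For all 3321 named genes this was 0.331 on finasteride arrays and 0.204 on controls, and it was higher than the first value for 18 of 28 lists. The lists are small, and no gene of any of them passed the threshold for a difference in mean level between the groups. Each list is given by its count and median beside those of all named genes.

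Spermatid and flagellum genes had a median SD of 0.455 over the finasteride arrays and 0.161 over controls, with 17 of 126 listed genes measured. Of the 17, 8 lay above the upper quartile of named genes (25.0% of all named genes do), and 15 had the larger SD on finasteride arrays, as 76.0% of all named genes did. The median deviation of finasteride 1 was -0.46, while finasteride 2, 3 and 4 lay between -0.01 and 0.06. Over all named genes finasteride 1 deviated by -0.05. Without finasteride 3 the list's value for finasteride 1 was -0.24. Under normexp correction finasteride 1 deviated by -0.36 and finasteride 4 by -0.37, with all named genes at -0.29 and 0.56. The axonemal dynein gene dnah7 read 0.81, 1.74, 2.05 and 0.96 on finasteride 1 to 4, and the ciliary gene cfap69 0.28, 1.0, 1.53 and 0.54. The gene morn3 read 1.26, 3.40, 1.83 and 2.93.

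The list did not move as a block. Finasteride 1 was the lowest array for 8 of the 17 genes (34.2% of all named genes were) and finasteride 2 for 7 (17.6%). Finasteride 1 was the highest for 4 (24.7% of all named genes), among them hydin, a gene of the flagellar central pair, at 1.04 against 0.30 to 0.36. The brightest probe of dynein intermediate chain gene dnai2 had an SD of only 0.08, with 2.98, 2.90, 2.98 and 3.08. A set of 11 repeated probes to dnai2 varied more, with a median SD of 0.281 (0.253 to 0.309), so the gene is not called steady. The genes' summed level overlapped between the groups, from 40.7 to 47.2 times the array's 75th percentile on finasteride arrays and from 41.0 to 45.3 on controls. Meiosis genes, 6 of 40 listed, also lay lowest on finasteride 1 by their median deviation (-0.39). That array was the lowest for 4 of the 6 and the highest for 2. Low there were tex15 and the m6A reader gene ythdc2 (-1.60 against -1.22 to -0.70), and the chromosome axis gene hormad1 read 3.49 against 3.55 to 4.18. Under normexp the meiosis genes lay lowest on finasteride 4 (-0.46) and not on finasteride 1 (-0.21), with all named genes at 0.56 and -0.29. Without finasteride 3, finasteride 1 deviated by -0.25.

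By median SD, Sertoli and spermatogonial genes were among the steadier lists. Sertoli genes (7 of 37 listed) had a median SD of 0.28 on finasteride arrays and 0.251 on controls, and spermatogonial genes (4 of 35) 0.227 and 0.309. Above the upper quartile of named genes lay 2 of the 7 Sertoli genes, ar among them, and 0 of the 4 spermatogonial genes (25.0% of all named genes do). The androgen receptor gene ar, whose ligand finasteride bears on, read -0.32, -0.17, -0.65 and 0.50 on finasteride 1 to 4 and -0.49, -0.35, -0.58 and -0.01 on controls 1 to 4. Its groups overlapped, and array 4 was the highest in each. Of the 4 spermatogonial genes piwil1 had the highest SD, 0.449, above the median of all named genes, and read -0.06 to 0.91 on finasteride arrays. Next came lin28a, with an SD of 0.294 on finasteride arrays and 0.882 on controls, where control 4 read -2.05. Steadiest were the germ cell gene dnd1, at -2.69 to -2.41 on finasteride arrays, and the receptor gene ret, at 1.43 to 1.80.

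Leydig and steroid synthesis genes (8 of 40) had a median SD of 0.462, with 0.353 on controls. The cortisol-inactivating gene hsd11b2 read -2.94, -4.49, -2.63 and -2.82 on finasteride 1 to 4, low on finasteride 2, and -3.90 on control 2 against -3.28 to -2.68. Estradiol-oxidising gene hsd17b2 read -2.65, -2.35, -0.88 and -2.03, high on finasteride 3, with controls from -2.62 to -1.90. The lipoprotein receptor gene scarb1 read -0.68, 0.92, -0.43 and 0.46, with controls from -0.45 to 1.0. Cholesterol transport gene star read -0.83, -1.0, -0.11 and -0.62 on finasteride 1 to 4. On controls 1 to 4 it read -0.12, -1.15, 0.05 and -0.04, so control 2 alone made the low end. Finasteride and control arrays overlapped for all 4 of these genes.

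**Figure D4:**
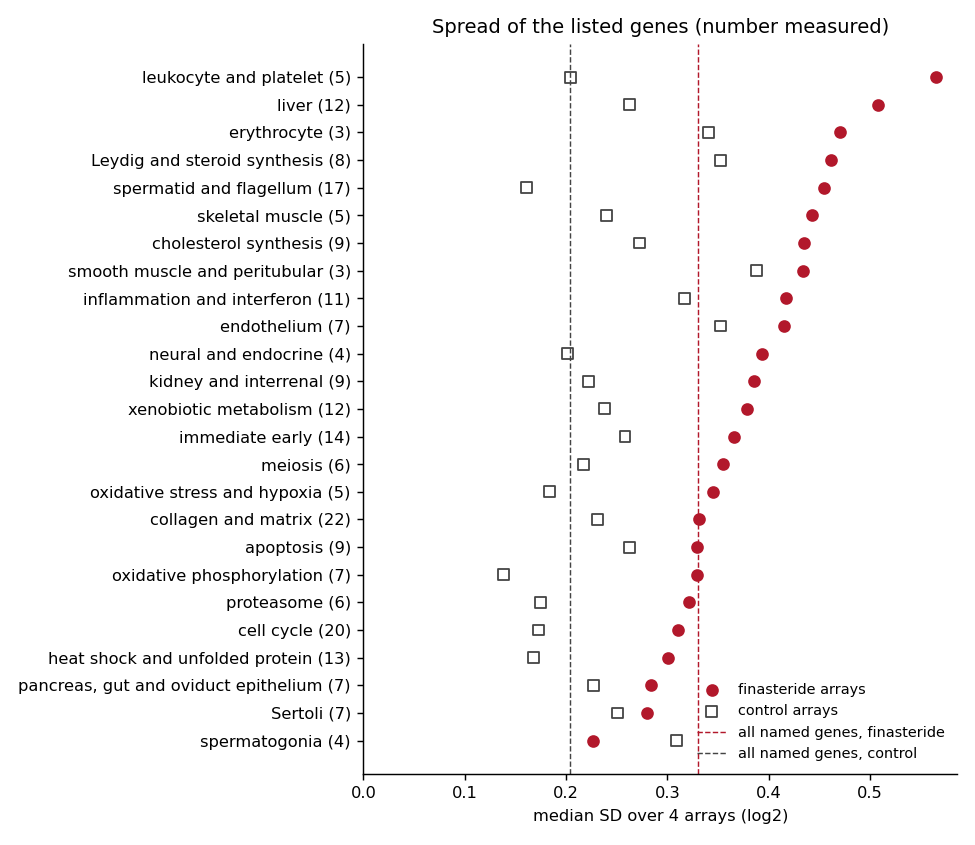
Median SD (log2) of the measured genes of each list over the 4 finasteride arrays (filled circles) and over the 4 control arrays (open squares), for lists with at least 3 measured genes, whose number stands in brackets. Dashed lines mark all 3321 named genes, at 0.331 and 0.204, and spermatid and flagellum genes lie at 0.455 and 0.161.

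Collagen and matrix genes differed mainly between finasteride 2 and finasteride 3. Their median deviation was 0.25 on finasteride 2 and -0.29 on finasteride 3. Of 22 measured genes of 87 listed, 15 were lowest on finasteride 3 (789 of 3321 named genes were) and 12 highest on finasteride 2 (606 of 3321). The collagen gene col6a1 read -0.06, 0.58, -0.82 and 0.19 on finasteride 1 to 4, the basement membrane gene col4a5 1.31, 0.90, 0.03 and 1.13, and the proteoglycan gene ogn -3.14, -2.12, -3.79 and -2.22. The list also moved on controls, where control 4 deviated by 0.20 and control 3 by -0.11, and ogn read -3.62 on control 3 and -1.22 on control 4. Under normexp correction the deviation of finasteride 3 was -0.06 and that of finasteride 2 was 0.06, with all named genes at 0.24 and -0.44. The list thus still lay below all named genes on finasteride 3 and above them on finasteride 2.

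Cell cycle genes were highest on finasteride 4 for 13 of the 20 measured (798 of 3321 named genes were) and lowest on finasteride 3 for 11 (789 of 3321). Both held for 7 of the 20, and 2 genes ran the other way, highest on finasteride 3 and lowest on finasteride 4. Their median SD was 0.31, and the median deviation was 0.19 on finasteride 4 and -0.16 on finasteride 3. Cyclin gene ccnb2 read 2.12, 1.89, 1.58 and 2.23 on finasteride 1 to 4. The kinesin gene kif11, at 3.70, 3.48, 2.76 and 3.63, was lowest on finasteride 3 but highest on finasteride 1, and the primase gene prim1, at -3.83, -1.47, -3.90 and -2.96, was highest on finasteride 2. Under normexp correction the deviation was 0.16 on finasteride 3 and 0.17 on finasteride 4, with all named genes at 0.24 and 0.56. The list thus lay below all named genes on both arrays under that correction. Without finasteride 4 the deviation of finasteride 3 was -0.10.

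**Figure D5:**
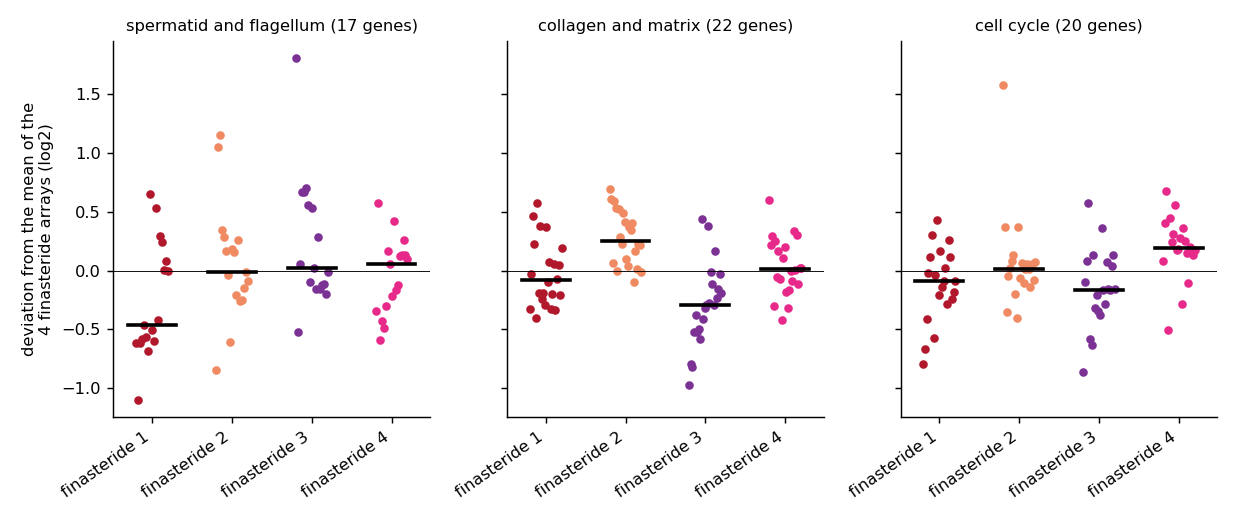
Deviation of each gene (1 point) from its mean over the 4 finasteride arrays, in log2 units, by array, for spermatid and flagellum, collagen and matrix, and cell cycle genes, with black bars for the medians. The median is -0.46 on finasteride 1 in the first panel, -0.29 on finasteride 3 in the second and 0.19 on finasteride 4 in the third.

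Proteasome genes (6 of 40) lay higher on finasteride 1, with a median deviation of 0.44, and psmb7, a catalytic core subunit, read 4.11 there against 3.06 to 3.48. Genes of oxidative phosphorylation (7 of 86) deviated by 0.26 on finasteride 1. After quantile normalization these values were 0.28 for the proteasome and 0.06 for oxidative phosphorylation, and on the authors' deposited values 0.27 and 0.06. Finasteride 1 was the highest array for 4 of the 6 proteasome genes and 4 of the 7 others, and the lowest for 0 and 1. Over all named genes it was highest for 24.7% and lowest for 34.2%. The median level was 2.23 in the proteasome list and 1.07 in the other, and both also hold dim genes. The brightest group of members deviated by 0.22 on that array, and the part of brightness in these values was not tested.

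Markers of other tissues and of blood also varied between the finasteride arrays. Liver genes (12 of 57) had a median SD of 0.508 against 0.262 on controls, without 1 common array: the complement gene c5 read -0.65, -2.92, -1.57 and -1.81 on finasteride 1 to 4 and the lipid carrier gene apob -2.96, -1.67, -1.91 and -1.42. Their summed level was 23.2 on finasteride 1, 16.8 to 18.9 on the other finasteride arrays and 15.1 to 17.4 on controls, so the groups overlapped. The brightest genes of the list weigh most in this sum, and the dim c5 and apob add little to it. Of white blood cell and platelet genes (5 of 50), the eosinophil peroxidase gene epx read -3.60, -2.53, -2.26 and -3.78 and the neutrophil gene mpo -0.12, -0.79, -1.50 and -1.04, with a summed level of 3.37 to 4.29 on finasteride arrays and 3.33 to 4.27 on controls. Of erythrocyte genes, 3 of 8 on the array were measured, and the anion exchanger gene slc4a1 read from -4.67 to -3.53 on finasteride arrays and up to -0.75 on control 4. The genes ca1, rhag, epb42, hemgn and sptb were not well above background on all finasteride arrays. The part of such tissue in the spread of other genes was not tested.

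Immediate early genes, which answer quickly to handling and to serum in many cells, had a median SD of 0.366 against 0.258 on controls (14 of 53 measured). Finasteride 2 was the lowest array for 6 of the 14 (17.6% of all named genes) and the highest for 0 (18.2%). Finasteride 1 was the highest for 6 (24.7%). The median deviation was 0.25 on finasteride 1 and -0.22 on finasteride 2. Under normexp correction these were 0.05 and -0.33, with all named genes at -0.29 and -0.44. The array that was lowest differed between genes: junb read 2.13, 1.41, 2.53 and 1.52 on finasteride 1 to 4 and fosl1 1.67, 0.63, 2.08 and 1.59, with finasteride 2 lowest for both, whereas klf10 read 2.08, 1.47, 1.23 and 2.42. The interferon-induced gene rsad2 read -1.70, -2.67, -4.13 and -3.97, and controls from -3.50 to -1.66.

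Heat shock and unfolded protein genes (13 of 55) had a median SD of 0.301, below that of all named genes, and 0.168 on controls. The small heat shock gene hspb6 read 4.64 on finasteride 3 against 3.34 to 3.54 on the other 3 finasteride arrays, and 3.98 on control 2 against 3.25 to 3.37 on the other controls. The endoplasmic reticulum chaperone gene hsp90b1 was highest on array 4 of both groups, at 1.73 against 0.67 to 1.12 on finasteride arrays and 1.45 against 0.96 to 1.22 on controls. The summed level of the list did not overlap between groups, from 90.9 to 116 on finasteride arrays and from 121 to 159 on controls, and 1 gene carried this. The inducible heat shock gene hspa1b read 5.64, 5.32, 4.56 and 5.10 on finasteride 1 to 4 and 6.32, 6.14, 5.69 and 6.52 on controls 1 to 4, and without it the sums overlapped, at 56.7 to 79.7 and 65.5 to 69.5. Of the 28 lists, the sums of 2 did not overlap between groups, the second being oxidative stress and hypoxia genes (5 of 51), at 4.28 to 5.07 on finasteride arrays and 5.77 to 6.77 on controls. Levels of some genes of this second list, gpx1 among them, did overlap. The share of all named genes without overlap was not counted, and the sums were not tested, so neither sum is read as a change of its list. No gene of either list passed the threshold of the fit of mean levels.

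At the other end, some genes hardly differed between the finasteride arrays. The 8 genes of lowest SD were lrit2, rbm15, kcnq1, atp13a4, fam167a, brat1, tmem52 and bmp8, with SDs from 0.03 to 0.05. All 8 lay below the array's 75th percentile, as did 19 of the 20 genes of highest SD, so this does not set them apart. The m6A methylation gene rbm15 read -0.24, -0.29, -0.32 and -0.28 on finasteride 1 to 4, and the potassium channel gene kcnq1 -3.80, -3.77, -3.76 and -3.72, close to its controls at -3.85 to -3.73. The growth factor gene bmp8 read -2.03 to -1.91, with controls from -2.19 to -1.82.

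Constancy on finasteride arrays did not always hold on controls. The gene lrit2 read -4.36 to -4.29 on finasteride arrays but -4.62 to -3.59 on controls (SD 0.54), and the ion pump gene atp13a4 -3.24 to -3.16 against -4.14 to -3.15. For fam167a the finasteride arrays lay at -2.69 to -2.61 below all controls (-2.41 to -1.82), and for tmem52 at -3.61 to -3.51 below controls at -3.26 to -3.08. In the lowest 1% of members by SD, 1 of 225 probes lay in the highest 5% of control SD.

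Whether spread differed between the groups was tested probe by probe with limma on each array's absolute deviation from its group mean. Of 22089 probes, 23 had the wider deviations on finasteride arrays (0.104%) and 6 the narrower (0.0272%) at an adjusted p under 0.05. All 23 were splits of the finasteride arrays into pairs, for which the 4 absolute deviations are nearly equal, and the fit also called some probes of equal spread in simulated data, so these counts are not read as changes. An F test of the variance ratio called 0 in either direction (lowest adjusted p = 0.0646), with 1930 wider and 190 narrower at an unadjusted p under 0.05.

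The mean levels of the groups did not differ past the threshold for any probe. In limma 0 of 25067 probes were higher and 0 lower (0.0% each, lowest adjusted p = 0.175, with 539 and 444 at an unadjusted p under 0.05). For nectin1l2.2 the log2 fold change of finasteride over control was 0.25, with a 95% interval from -3.24 to 3.75, and for c1ql4 it was 2.27 (-0.75 to 5.28). For kcnq1, from the genes of lowest SD, it was 0.00 (-0.29 to 0.30). For genes as spread as the first of these, 4 arrays per group leave a difference of several-fold undetectable. Between the 2 slides, with group in the fit, 0 of 25067 probes differed in either direction (0.0% each, 277 and 182 at an unadjusted p under 0.05). Leaving out 1 array gave up to 7 calls on mean level, without control 3, and 2 without finasteride 1, 2 without finasteride 2 and 1 without finasteride 4.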

How the data were processed

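The deposited scanner files give the intensity of each spot. They came from Agilent Feature Extraction, version 10.7.1.1, and use genome build JGI 4.1, both per the file headers. Log2 values make up the authors' deposited table of the series. Compared with the scanner files, its columns equal the log2 intensities of all spots after quantile normalization (median 7.25 in each column, same direction). Neither the making of that table nor the background correction of the scanner software is described in the sources used here. Flags for spots well above background were deposited with them, per the file headers.

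Outlier and control spots were left out, log2 processed intensity was averaged over a probe's spots (at most 2), and the array's 75th percentile was subtracted. A probe counted as well above background where all its spots used were. Of 45220 features, 43803 spots of 32899 probes were not controls. Gene names came from matching accessions, without versions, to the RefSeq table of assembly UCB_Xtro_10.0, used for names only since its build differs. It matched 5891 probes, 4872 of them with a symbol. A gene was read from its brightest probe. No sequences were used here.

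Mean levels were tested over probes well above background on at least 3 arrays of either group, and spread over probes so on all 8, with limma 3.58.1 in R 4.3.3, two-sided, with Benjamini-Hochberg adjustment at 0.05. Per-array measures had exact permutation tests. Replicate numbers were not taken to pair samples: the correlation of deviations between arrays of equal number was 0.30, 0.37, -0.05 and -0.01. Steps were tested on simulated data. Because gMeanSignal was not among the columns used, normexp (offset 50) was run on median signals.

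Named were the 20 genes of highest and 8 of lowest SD, up to 6 per finasteride array and direction with the widest gap, up to 3 of highest SD per list, and 4 probes without a symbol. One gene that the rule named is not reported here. Other list genes are shown as examples, chosen after their values were seen. Members and the 28 lists were chosen with earlier results of these data known. Of the genes named, arid1a, glyatl2, znf106, osgepl1, tmem52, ten1, ush1c, hspb6, fosl1, prim1, hydin, dnd1, lin28a, ccnb2, rbpms2, cdh16, cxcl8, gpx1, psme4 and rps19 were read from xhyb probes, whose specificity was not tested.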

Additional observations from a re-analysis of the deposited data

Results flagged for a closer look

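Of 278 groups of 4 arrays tested, those of the named genes among them, 26 held an array far from the other 3, 16 on finasteride arrays and 10 on controls. A level counted as far when its gap to the nearest other took up more than the share of the range that chance exceeds in about 1 of 20 groups. For 278 groups chosen without regard to their values this would be about 13.9. Genes were partly named for such gaps on the finasteride arrays, so that number does not apply to those groups. The 26 are therefore listed without a comparison to chance.

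On finasteride 1 the levels that stood apart were those of ccdc18 (-1.24), nin (-0.58) and ush1c (1.29), all low, and of gtf3a (-2.05), psme4 (1.42) and rps19 (3.15), all high. On finasteride 2 they were cxcl8 (2.72) and pdlim2 (-0.69), high, and hsd11b2 (-4.49), low. On finasteride 3 btbd10 (-0.90), hspb6 (4.64) and stpg2 (-2.09) stood high and sorcs2 (-4.65) low. On finasteride 4 amot (-2.59) stood high and pomt2 (-4.62) and zic5 (-4.86) low.

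On controls the levels that stood apart were c1ql4 (-0.66), cdh16 (2.64) and spata6 (-2.60) on control 1, ccdc18 (0.65), hspb6 (3.98) and nin (1.49) on control 2, and atf6 (-1.93), gpx1 (-3.40), kcnq1 (-3.85) and stpg2 (-3.94) on control 3. Of these spata6 and kcnq1 hardly differed in size between controls, from -2.60 to -2.53 and from -3.85 to -3.73.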

How the results depend on the processing

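The median SD of members (0.332) was 0.634 under normexp correction, 0.395 with no filter on background, 0.739 as a range in place of the SD, and 0.272 to 0.350 with 1 array left out. The share of probes with the larger SD on finasteride arrays (73.3%) reversed to 22.9% under normexp, the cause of which was not tested, and was 61.8% to 79.2% with 1 array of either group left out, lowest without finasteride 1. It was 70.2% to 80.0% under the other alternatives. The 1226 departures were 5333 under normexp, 673 on specific probes, 421 above the median level, 3028 with no filter, 5353 at 1.5-fold, 126 at 4-fold and 1358 to 2156 with 1 finasteride array left out, where 1 array stands against 2 (2026 without finasteride 2, 2156 without finasteride 4). The 29 calls on spread were 0 under normexp and by the F test, 18 on specific probes, 18 with deviations from the group median, 7 with the replicate block, and 5 to 21 with 1 array left out, with 5 without finasteride 1 or 3, 6 without finasteride 2 or 4, 10 without control 2 or 4 and 13 without control 1. With 3 finasteride arrays no split into pairs can arise. The 0 calls on mean level were 1 within slide 2 and 0 to 7 with 1 array left out. The replicate block changed no other call, and only 2 of the 4 finasteride arrays correlated best with the control of their own number. Of 134 named genes, the SD of 67 moved by more than the spread used for comparison under normexp, and of 17 to 25 with 1 finasteride array left out. With 4 arrays an SD is known only loosely, and signals close to background limit the dim genes. The share of probes with the larger SD and the F test were added after the data were seen.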
